A study of Caenorhabditis elegans with 139 samples.

Results

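Embryos of the nematode Caenorhabditis elegans labelled 40, 50 and 60 min after the 4-cell stage were compared with embryos labelled 70 to 100 min, the window around the start of gastrulation. The members were taken from the labelled times alone: 3 embryos at 40 to 60 min and 8 at 70 to 100 min, 11 of the 139 single embryos of the time course. The labels gave all of them the same history. Adults were cut open to release the embryos, 4-cell embryos were picked, kept at 20 °C until the labelled time and frozen, and RNA of each was extracted with TRIzol and amplified by CEL-Seq, a 3' end counting method with 1 embryo per library and no pooling. No genotype, mutation or treatment was given for any group. The labels did not name the mothers or the sequencing runs, so the p-values measure the spread between these embryos.

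In C. elegans gastrulation the endoderm precursors move from the surface into the interior first and the mesoderm and germline precursors follow. In the same period the embryo passes from maternal messenger RNA, made in the oocyte, to RNA transcribed from its own genome. The best known early zygotic genes are lineage regulators that act in short relays, for example the GATA factors of the endoderm, in which med-1 and med-2 precede end-3 and end-1, and those precede elt-7 and elt-2.

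The 11 embryos fell into 3 blocks of consecutive sample numbers. Numbers 101 to 107 covered 40 to 100 min in steps of 10 min and held all 3 embryos of 40 to 60 min and 4 of 70 to 100 min. The other 4 embryos of 70 to 100 min had numbers 9 and 10 (90 and 80 min) and 55 and 56 (70 min each). Gene counts per library ran from 197826 to 2317349, and 5508 to 10775 genes had at least 1 count. The 80 and 90 min embryos of the 101 to 107 block stood apart, with 197826 and 242809 gene counts, so that 1 count was worth 5.05 and 4.12 CPM there. CPM stands for counts per 1000000 gene counts of an embryo. In these libraries a count of 0 allows up to 15.2 and 12.4 CPM (3 counts, counting error only). In 2461 of 6682 genes both of these embryos lay below the 70 and the 100 min embryo of their block, and in 1044 both lay above. Counts of genes per spike-in count ran from 384 to 527 at 40 to 60 min and from 91.1 to 322 at 70 to 100 min. The part of this in the results was not tested, and a CPM value is a share of an embryo's gene counts, not an amount. The 5 embryo pairs labelled alike in time, 4 of them from different number blocks, were compared to see whether any library was listed more than once. Their chi-square per degree of freedom was 23.6 to 30.4 against counting noise alone, which separate embryos exceed in any case, and each library was kept as its own sample.

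Yolk, collagen and late muscle genes separated the blocks, and neuronal genes did not. The 6 yolk protein genes of the adult intestine took 0.0527, 0.118 and 0.111% of gene counts at 40, 50 and 60 min, 0.186, 0.0136, 0.0502 and 0.0874% at 70, 80, 90 and 100 min within the block, and 0.964% to 2.26% in the 4 embryos of the other blocks. Cuticle collagens, made by the epidermis of later stages, took 0.0475% to 0.218% in the 7 embryos of the block and 0.537% to 2.75% in the other 4. Contractile genes of differentiated muscle took 0.0106% to 0.0637% and 0.0903% to 0.764% in the same order. Major sperm protein genes reached 0.00265% within the block and 0.0343% outside it. The yolk gene vit-2 lay at 87.2, 224 and 216 CPM at 40, 50 and 60 min and 333, 10.1, 78.3 and 119.8 CPM at 70 to 100 min within the block, against 2257 to 3431 CPM in the other blocks. The muscle myosin genes overlapped between the blocks: unc-54 had at most 44.6 CPM within the block and 2.86 to 298 CPM outside it, and myo-3 at most 6.69 CPM and 0 to 114 CPM. The neuronal list took 0.0292% to 0.0826% within the block and 0.0382% to 0.0474% outside it. Of its members, the synaptic gene rab-3 had no count within the block and 1.8, 0, 0 and 19.6 CPM in the embryos with numbers 55, 56, 10 and 9, and unc-119, also present early, had 82.4 to 253 CPM within the block and 47.1 to 114 CPM outside it. The part of these sources in differences between all 11 embryos was not tested.

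**Figure D1:**
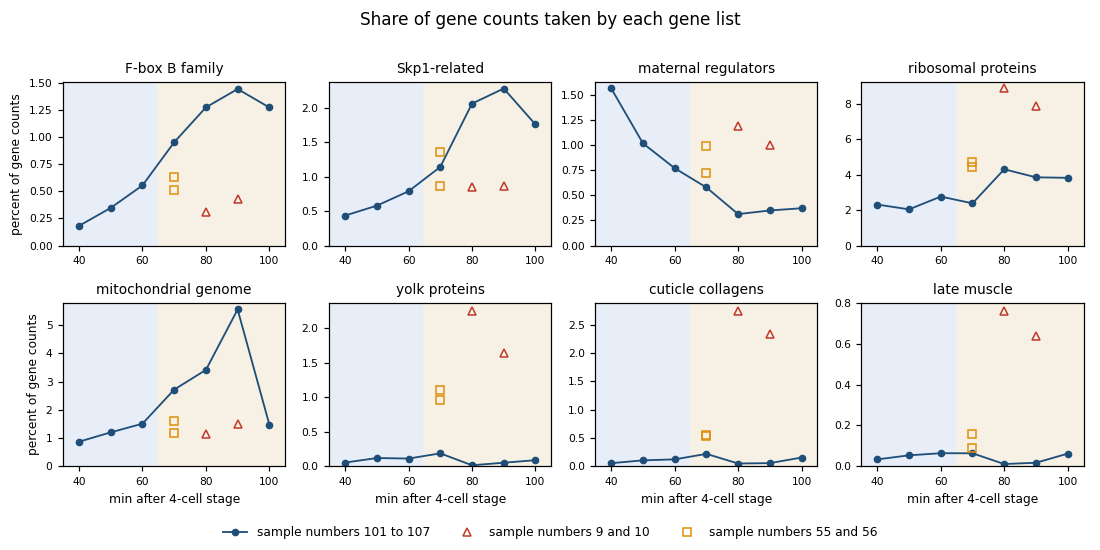
Share of gene counts (percent, vertical axes starting at 0) taken by 8 gene lists against labelled time (min after the 4-cell stage). Filled circles joined by a line are the embryos with sample numbers 101 to 107, triangles are numbers 9 and 10, squares are numbers 55 and 56, and each point is 1 embryo. F-box B and Skp1-related genes took more, and maternal regulators less, of the counts at later times within the joined series, while yolk, collagen and late muscle genes stood higher in the 4 separate embryos.

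Over all 11 embryos no gene passed among 6391 tested, with 0 higher and 0 lower (0% called). A call needed at least a 2-fold difference at an adjusted p below 0.05 in edgeR's quasi-likelihood test. The lowest adjusted p was 0.0763, and 1077 genes had an unadjusted p under 0.05. DESeq2 on the same genes called 477 higher and 67 lower. With simulated counts of this design edgeR found 4 of the 100 genes given a 4-fold change and 0 of the 100 given a 2-fold one. In the 7 embryos with consecutive numbers, 3 against 4, the same test called 347 of 6682 genes higher at 70 to 100 min (5.19%) and 193 lower (2.89%), 540 in all (8.08%). With simulated counts of that design it found 28 of 100 genes given a 4-fold change. These calls rest on few embryos. None were made without the 40 min embryo, without the 50 min embryo, or without the 80 and 90 min embryos together, and 137 higher and 36 lower were called without the 90 min embryo alone. A fit with the number block as covariate over all 11 embryos called 115 higher (1.8%) and 47 lower (0.735%), 162 in all (2.53%). The other blocks held embryos of 70 to 100 min alone, so its time difference came from the same 7 embryos and is no separate evidence for their calls. Labelled time as a numeric term in the 7 embryos called 625 higher (9.35%) and 544 lower (8.14%), 17.5% in all. In 87 genes all 8 embryos of 70 to 100 min lay above the 3 of 40 to 60 min (1.36% of 6391), and in 534 all lay below (8.36%). Within the 7 embryos this held for 583 (8.72%) and 1297 genes (19.4%). Below, a gene is said to have risen or fallen only where it was called in the 7 embryos. Over all 6682 genes 5.19% rose and 2.89% fell in this sense, and the counts of each list below stand beside these shares. Values of the 7 embryos are given in order of time and called early (40, 50 and 60 min) and late (70, 80, 90 and 100 min), and those of the other blocks are named as such. The 8 late embryos are those of all blocks. Fewer cells of a type and less RNA per cell cannot be told apart in whole embryos.

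In the endoderm relay end-3 fell while elt-7 and dve-1 rose. end-3 (chromosome V), a GATA factor that specifies the endoderm precursor, had 32.8, 53.4 and 17.0 CPM early and 10.0, 0, 0 and 1.04 CPM late, and 0 to 8.57 CPM in the other blocks. All 3 early embryos lay above all 8 late ones, and end-3 fell (log2 fold change -3.05 ± 0.86 (SE), adjusted p = 0.043). med-1 and med-2, which activate the end genes, were near 0 throughout, with at most 0.432 CPM of med-1 and 2.52 CPM of med-2. end-1, the partner of end-3, had 9.49, 28.7 and 46.0 CPM early and 66.9, 101, 53.5 and 71.6 CPM late. It was highest at 80 min and did not pass the test (log2 fold change 1.58 ± 0.58 (SE), adjusted p = 0.0967). The pair of 70 min embryos with numbers 55 and 56 had 0 CPM of end-1. The 80 and 90 min embryos with numbers 10 and 9, from a different block than that pair, had 74.6 and 55.7 CPM. elt-7, a gut GATA factor downstream of the end genes, had 3.45, 4.00 and 15.1 CPM early and 33.5, 35.4, 61.8 and 52.9 CPM late and 0 to 28.6 CPM elsewhere. Within the series every embryo from 70 min on was above every earlier one, and elt-7 rose (log2 fold change 2.80 ± 0.68 (SE), adjusted p = 0.0236). elt-2, the main gut GATA factor of later stages, had at most 3.93 CPM in all 11 embryos and was not tested. It lay at 4.21 to 35.1 CPM in the 4 embryos of 110 to 140 min from the same block. dve-1, a homeobox gene used in the intestine, had 6.04, 4.00 and 17.7 CPM early and 55.8, 20.2, 16.5 and 99.6 CPM late and rose (log2 fold change 2.64 ± 0.72 (SE), adjusted p = 0.0385), although its 90 min value lay below the 60 min value. Maternal skn-1, the factor at the head of the relay, had 142, 40.7 and 39.1 CPM early and 54.7, 5.05, 12.4 and 63.3 CPM late and did not pass (adjusted p = 0.473). Of the 14 endoderm genes on the list 9 were tested, of which 2 rose and 1 fell, with a median log2 fold change of 1.46 against -0.02 over all 6682 genes.

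**Figure D2:**
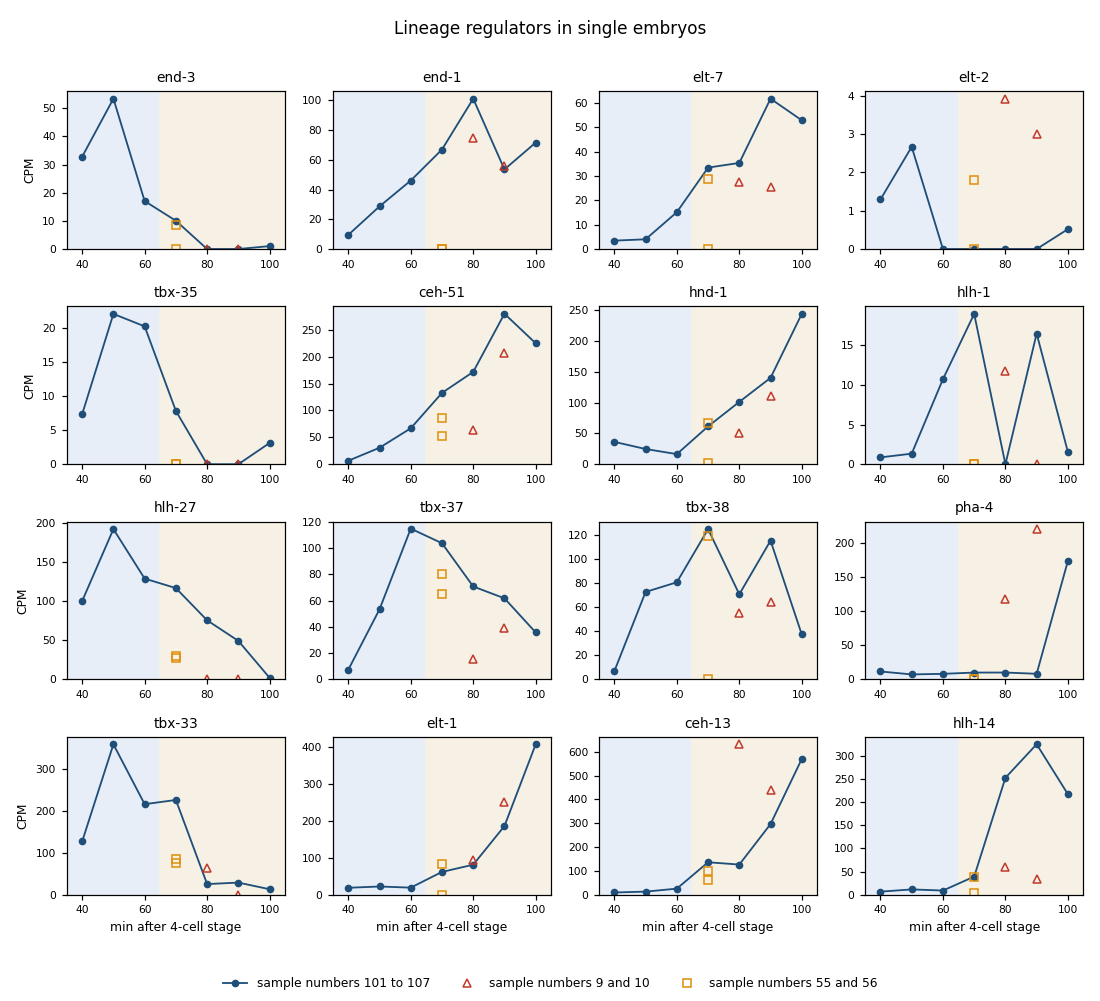
CPM (vertical axes, starting at 0 and scaled to each gene) of 16 lineage regulators against labelled time (min after the 4-cell stage), with blue shading for 40 to 60 min and tan shading for 70 to 100 min. Points joined by a line are sample numbers 101 to 107, triangles are 9 and 10, squares are 55 and 56, and each point is 1 embryo. end-3, tbx-35, hlh-27 and tbx-33 are highest at 50 min, tbx-37 and tbx-38 at 60 and 70 min, and elt-1, ceh-13 and hnd-1 at 100 min in the joined series.

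The mesoderm regulators had a like order in their CPM values. tbx-35, a T-box gene that specifies the MS mesoderm blastomere, was found at 7.34, 22.0 and 20.2 CPM early and 7.81, 0, 0 and 3.11 CPM late, and at 0 CPM in all 4 embryos of the other blocks. It was highest at 50 and 60 min but did not pass the test (adjusted p = 0.154). ceh-51, an NK-2 type homeobox gene activated by TBX-35, had 6.47, 30.7 and 66.9 CPM early and 133, 172, 280.1 and 225 CPM late. It increased at each step up to 90 min, the 4 embryos of the other blocks had 52.9 to 206 CPM, and it rose (log2 fold change 2.75 ± 0.66 (SE), adjusted p = 0.0227). hnd-1, a Hand family bHLH gene of mesoderm precursors, had 36.2, 24.7 and 16.4 CPM early and 61.3, 101, 140.0 and 244 CPM late and 1.8 to 109.9 CPM elsewhere. The 4 late embryos of the series were above the 3 early ones, and hnd-1 rose (log2 fold change 2.63 ± 0.56 (SE), adjusted p = 0.0169), as did the Wnt ligand gene cwn-1, from 8.12 ± 2.44 CPM (SD, n = 3) to 45.9 ± 34.5 CPM (SD, n = 4) (adjusted p = 0.0228). The T-box genes tbx-8 and tbx-9 had log2 fold changes of 2.36 and 1.38 and missed the threshold (adjusted p = 0.0623 and 0.0705). The muscle regulators had low values. hlh-1, the MyoD ortholog, had 0.863, 1.33 and 10.7 CPM early and 19.0, 0, 16.5 and 1.56 CPM late (adjusted p = 0.487), and unc-120, an SRF type factor, had at most 8.00 CPM in the series and was not tested. pal-1, the Caudal factor of the C and D blastomeres, had 192, 171 and 122 CPM early and 79.2, 55.6, 57.7 and 114 CPM late (adjusted p = 0.222), and the posterior Hox gene nob-1 reached 69.5 CPM at 100 min with at most 10.1 CPM in the other 6 embryos of the series. Of the 18 mesoderm genes 9 were tested, 3 rose and 0 fell, and the median was 2.36.

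In the AB lineage several genes were highest in the middle of the window, and the comparison of the groups called none of those named next. hlh-27, a REF-1 family bHLH gene switched on by Notch signalling in AB cells, had 101, 193 and 129 CPM early and 117, 75.8, 49.4 and 2.07 CPM late and 0 to 30.0 CPM elsewhere. It was highest at 50 min and nearly gone at 100 min, with overlap between the groups (log2 fold change -1.02 ± 0.75 (SE), adjusted p = 0.411). Its neighbour in the family hlh-25 had 17.3, 27.3 and 28.4 CPM at 40 to 60 min and 20.1, 5.05, 8.24 and 1.56 CPM at 70 to 100 min (adjusted p = 0.306), and ref-1 itself had 111, 189 and 88.3 CPM early and 133, 50.5, 98.8 and 71.6 CPM late (adjusted p = 0.698). The T-box genes tbx-37 and tbx-38, needed for mesoderm and pharynx from the anterior AB cells, had similar courses: tbx-37 had 7.34, 53.4 and 115 CPM early and 104, 70.8, 61.8 and 35.8 CPM late, and tbx-38 had 6.90, 72.7 and 80.7 CPM early and 125, 70.8, 115 and 37.3 CPM late. Both started near 7 CPM and peaked at 60 and 70 min, and neither passed the test (adjusted p = 0.757 and 0.431). tbx-33, another T-box gene, had 127, 359.5 and 216 CPM early and 226, 25.27, 28.8 and 13.0 CPM late. It was low from 80 min on. The group test did not call it (adjusted p = 0.214) while labelled time called it lower (log2 change -2.50, adjusted p = 0.0246). In the 4 embryos of 110 to 140 min from the same block hlh-25, hlh-27, tbx-35 and tbx-33 were at 0 to 4.21 CPM.

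Of the 20 Notch pathway genes on the list 14 were tested and 1 rose (5.19% over all genes), with a median of -0.81. That gene was dsl-1 (chromosome IV), which codes for a secreted protein of the Notch ligand family. It had 15.1, 21.3 and 42.3 CPM early and 193, 202, 210.0 and 187 CPM late, and 101 to 161 CPM in the other blocks, so all 8 late embryos lay above the 3 early ones (log2 fold change 3.12 ± 0.51 (SE), adjusted p = 0.0169; log2 fold change 2.78 over all 11 embryos, adjusted p = 0.0763). The receptor gene glp-1, a maternal transcript, had 149, 65.4 and 46.0 CPM early and 35.7, 5.05, 16.5 and 78.8 CPM late (adjusted p = 0.326), the second receptor lin-12 8.20, 18.7 and 35.3 CPM early and 15.6, 45.5, 53.5 and 91.3 CPM late (adjusted p = 0.158), and the pathway's transcription factor lag-1 261, 186 and 146 CPM early and 98.1, 15.2, 24.7 and 79.9 CPM late (adjusted p = 0.0689).

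Among regulators of pharynx and epidermis ceh-32 and elt-1 rose, and the others named here were not called. pha-4, the FoxA factor of the pharynx and gut, had 11.7, 7.34 and 8.20 CPM early and 10.0, 10.1, 8.24 and 173 CPM late, and 0 and 0 CPM at 70 min and 118 and 219.8 CPM at 80 and 90 min in the other blocks. Only the 100 min embryo of the series was high, and pha-4 missed the threshold (log2 fold change 2.77 ± 0.92 (SE), adjusted p = 0.0698). ceh-32, a Six3/6 type homeobox gene of anterior cells, had 3.45, 11.3 and 1.26 CPM early and 23.4, 60.7, 111 and 113 CPM late and 46.9 to 169 CPM elsewhere. The groups did not overlap in any block, and ceh-32 rose (log2 fold change 4.09 ± 0.79 (SE), adjusted p = 0.0169). elt-1 (chromosome IV), the GATA factor that specifies epidermis, had 18.6, 22.0 and 18.9 CPM early and 61.3, 80.9, 185 and 406 CPM late, against 0 to 251 CPM in the other blocks. It increased at each step from 60 min and rose (log2 fold change 3.43 ± 0.64 (SE), adjusted p = 0.0169; 3.69 ± 0.69 without the 80 and 90 min embryos). lin-26, downstream of it, had 140.2, 61.4 and 36.6 CPM early and 59.1, 10.1, 32.9 and 71.1 CPM late. Its highest value was at 40 min, and it was not called (log2 fold change -0.58 ± 0.57 (SE), adjusted p = 0.554). elt-3, also downstream, had 0.863, 5.34 and 6.31 CPM early and 7.81, 0, 12.4 and 3.63 CPM late and was not tested.

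Hox, homeobox and proneural genes were among the 10 largest rises. ceh-13 (chromosome III), the labial type Hox gene, had 9.06, 12.7 and 25.23 CPM early and 136, 126, 297 and 570.0 CPM late, and 60.0 to 632 CPM in the other blocks. Every late embryo of all 3 blocks exceeded every early one (log2 fold change 4.38 ± 0.66 (SE), adjusted p = 0.0169; log2 fold change 4.45 over all 11 embryos, adjusted p = 0.0763). ceh-43, the Distal-less ortholog of anterior cells, had 16.4, 21.3 and 30.9 CPM early and 93.7, 253, 494 and 422 CPM late and 95.8 to 221 CPM elsewhere, again without overlap (log2 fold change 4.01 ± 0.62 (SE), adjusted p = 0.0169). hlh-14, an Achaete-Scute type proneural bHLH gene, had 6.47, 11.3 and 8.83 CPM early and 39.0, 253, 325 and 217 CPM late; the other blocks held 3.61 to 58.9 CPM, which overlapped the early range (log2 fold change 4.79 ± 0.72 (SE), adjusted p = 0.0169). unc-30, the Pitx type homeobox gene known for GABA neuron identity, had 1.73, 2.67 and 1.26 CPM early and 19.0, 10.1, 41.2 and 131 CPM late and 0 to 156 CPM elsewhere. It had the largest log2 increase among the genes named by the size rule (log2 fold change 4.97 ± 0.88 (SE), adjusted p = 0.0169; 5.42 ± 0.86 without the 80 and 90 min embryos). ceh-37, an Otx type gene, rose as well from 3.15 ± 3.63 CPM (SD, n = 3) to 46.3 ± 48.7 CPM (SD, n = 4) (adjusted p = 0.0227). Of 14 epidermal genes 9 were tested and 2 rose (ceh-13 and elt-1, median 1.17, with tbx-33 of that list highest at 50 min), and of 10 pharynx genes 6 were tested and 1 rose (ceh-32, median 1.12). Of the 63 ceh homeobox genes, a list added after values were seen, 22 were tested and 6 rose (median 0.52): ceh-43, ceh-37, ceh-20, ceh-13, ceh-32 and ceh-51. The size rule also named F58H1.5, igcm-4, K02D3.1, F36A2.3 and F14H12.6 among the rises, with log2 fold changes of 4.71, 4.54, 3.76, 3.74 and 3.72. For F36A2.3 and F14H12.6 the 8 late embryos were all above the 3 early ones, at 37.9 to 86.4 and 48.2 to 91.5 CPM in the other blocks.

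Families of ubiquitin ligase components, the fbxb, skr and fbxc genes, held 53, 11 and 10 of the 347 genes that rose. F-box B genes (fbxb) code for proteins with an F-box, the domain that links a substrate to the ligase through a Skp1 type adaptor, and Skp1-related (skr) genes code for such adaptors. The fbxb genes together took 0.182, 0.347 and 0.555% of gene counts at 40, 50 and 60 min and 0.953, 1.27, 1.44 and 1.27% at 70, 80, 90 and 100 min, and 0.310% to 0.629% in the other blocks. The late embryos of the series were all above the early ones, while the other blocks overlapped them. Of 104 fbxb genes 87 were tested, 53 rose and 0 fell, and the median log2 fold change was 2.13; the called members ranged from 1.71 to 3.55. The largest were fbxb-35 (4.75, 6.67 and 17.7 CPM early and 49.1, 25.27, 165 and 150.4 CPM late; log2 fold change 3.55 ± 0.73 (SE), adjusted p = 0.0169), fbxb-96, fbxb-30 and fbxb-34 (log2 fold change 3.48, 3.47 and 3.45). Over all 11 embryos 81 fbxb genes were tested with a median of 1.63, and 0 were called. Of the 53 called, 35 lie on chromosome II, where 110 of 1253 tested genes rose (8.78%).

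Of 20 Skp1-related genes 17 were tested, 11 rose and 0 fell, and the median was 1.85. Their summed share was 0.435, 0.579 and 0.789% and then 1.14, 2.06, 2.28 and 1.76%, and 0.854% to 1.36% in the other blocks, so that all 8 late embryos were above the 3 early ones. skr-12 had 148, 258 and 322 CPM early and 825, 1178, 1297 and 816 CPM late and 333 to 832 CPM elsewhere, with no overlap in any block (log2 fold change 2.31 ± 0.45 (SE), adjusted p = 0.0169). skr-10, the most abundant of those named, had 358, 588 and 1007 CPM early and 1548, 3119, 3472 and 2419 CPM late (log2 fold change 2.25 ± 0.49 (SE), adjusted p = 0.0172). skr-9 and skr-21 rose by 2.32 and 3.26 on the log2 scale. In the other blocks skr-10 had 773 to 1515, skr-9 440 to 672 and skr-21 0 to 9.03 CPM, each overlapping its early range. Of 39 F-box C genes (fbxc), added as a list after values were seen, 25 were tested, 10 rose and 0 fell (median 1.87). Among those that rose were fbxc-21, fbxc-25, fbxc-29 and fbxc-34 (log2 fold change 2.61, 2.71, 3.22 and 3.26). In the other blocks these had 23.6 to 49.7, 0 to 39.3, 0 to 23.6 and 0 to 4.52 CPM, each overlapping its early range. Members of these 3 families share sequence, and reads with several alignments were not counted apart, so values of single members are uncertain.

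The sdz genes are named as zygotic genes dependent on SKN-1. Of 31, 25 were tested and 10 rose, with a median of 1.06. sdz-4 had 67.3, 112 and 169 CPM early and 333, 854, 453 and 593 CPM late (log2 fold change 2.49 ± 0.50 (SE), adjusted p = 0.0169), and sdz-28 had 62.6, 92.0 and 112 CPM early and 302, 222, 321 and 770.2 CPM late (log2 fold change 2.38 ± 0.50 (SE), adjusted p = 0.0169), both higher in every late embryo of the series. sdz-5 and sdz-11 rose as well (log2 fold change 3.08 and 3.19). In the other blocks the sdz list took 0.181% to 0.344% of gene counts, against 0.136% to 0.274% at 40 to 60 min. sdz-4 had 71.5 to 157, sdz-28 55.0 to 232, sdz-5 0 to 15.7 and sdz-11 0 to 15.1 CPM there, each overlapping its early range. Others were highest at 50 or 60 min in the series: sdz-1 had 142, 218 and 156 CPM early and 206, 40.4, 119 and 1.04 CPM late, sdz-15 55.7, 169 and 148 CPM early and 153, 40.4, 37.1 and 7.26 CPM late, and sdz-38 25.0, 70.7 and 105 CPM early and 70.3, 45.5, 45.3 and 4.15 CPM late. None of these 3 was called (adjusted p = 0.634, 0.465 and 0.679), and at 110 to 140 min they were at 0 to 5.62 CPM. Among 16 genes first described as early embryonic transcripts or lineage reporters 13 were tested and 3 rose (median 0.64). vet-1, a very early transcript, had 492, 1158 and 1270.5 CPM early and 3072, 4630.3, 4950.4 and 3145 CPM late, and 4561 to 10713 CPM in the other blocks (log2 fold change 2.25 ± 0.47 (SE), adjusted p = 0.0169). All 8 late embryos were above all early ones. The nuclear receptor gene nhr-2 and the forkhead gene pes-1 rose too (log2 fold change 1.48 and 3.23). In the other blocks nhr-2 had 212 to 462 and pes-1 0 to 36.1 CPM, each overlapping its early range of 133 to 265 and 3.78 to 9.49 CPM. By contrast pes-10, a classical marker of the onset of zygotic transcription, had 206, 492 and 362 CPM early and 678, 490.3, 560.1 and 158 CPM late with overlap (adjusted p = 0.442). The coactivator gene cbp-1 had 181, 201 and 202 CPM early and 197, 25.27, 16.5 and 289 CPM late (adjusted p = 0.788).

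**Figure D3:**
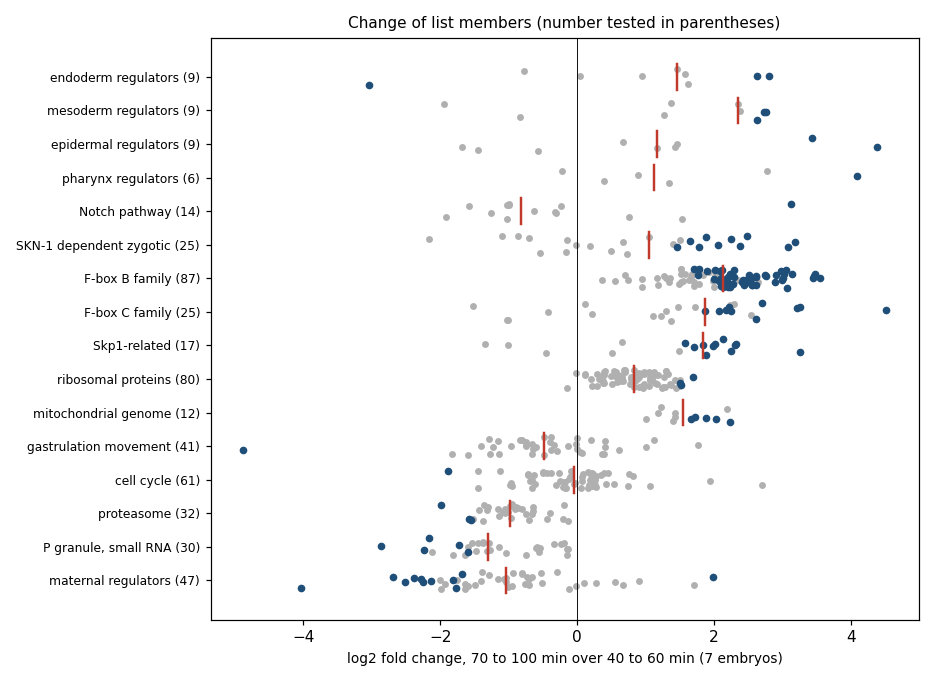
Log2 fold change (70 to 100 min over 40 to 60 min, 7 embryos with sample numbers 101 to 107) of the tested members of 16 gene lists, 1 point a gene, with vertical scatter for display only. Blue points were called (adjusted p under 0.05 and at least 2-fold), grey points were not, and the red line is the list's median, from 2.36 for mesoderm regulators to -1.3 for P granule and small RNA genes.

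Of 56 maternal regulators of the oocyte and early embryo 47 were tested, 10 fell and 1 rose in the 7 embryos, and the median was -1.05, with 40 of 47 negative. Over all 11 embryos 0 were called and the list was nearly even, with 25 negative, 22 positive and a median of -0.48. pos-1 (chromosome V), a CCCH zinc finger protein that controls translation in the germline lineage, had 5262, 2521 and 1687 CPM early and 715, 657, 572 and 256 CPM late. It decreased at every step and fell (log2 fold change -2.28 ± 0.47 (SE), adjusted p = 0.0169), but in the other blocks it was 827 to 2401 CPM, overlapping the early range. zif-1, the ligase adaptor that removes germline CCCH proteins from somatic cells, had 247, 185 and 65.6 CPM early and 50.2, 10.1, 16.5 and 17.1 CPM late and 22.9 to 144 CPM elsewhere (log2 fold change -2.52 ± 0.57 (SE), adjusted p = 0.0196). pie-1, the CCCH protein that keeps the germline precursor transcriptionally silent, had 442, 206 and 197 CPM early and 105, 30.3, 12.4 and 48.2 CPM late and 34.3 to 182 CPM elsewhere, below the early values in all 8 (log2 fold change -2.25 ± 0.55 (SE), adjusted p = 0.0236). gld-3, an RNA-binding partner of a cytoplasmic poly(A) polymerase, had 602, 363 and 212 CPM early and 134, 40.4, 12.4 and 17.1 CPM late, again without overlap in any block (log2 fold change -2.70 ± 0.64 (SE), adjusted p = 0.0227). The polarity proteins' genes mex-5 and mex-6 fell by 1.77 and 1.81 on the log2 scale (adjusted p = 0.0498 and 0.0325), mex-6 without overlap over the 11. mex-1, spn-4, oma-2 and marc-3 fell too (log2 fold change -2.39, -2.14, -1.69 and -4.04). In the other blocks they had 118 to 319, 206 to 432, 147 to 278 and 0 to 40.0 CPM, each overlapping its early range. marc-3 had 36.7, 11.3 and 8.83 CPM early and 2.23, 0, 0 and 0.519 CPM late. Over all 11 embryos its log2 fold change was -0.96 (adjusted p = 0.784). oma-1, the close relative of oma-2, had 485, 496 and 507 CPM early and 355, 131, 231 and 176 CPM late and was lower in all 8 late embryos without passing the test (adjusted p = 0.15). The member that rose was par-2, the RING protein of the posterior cortex, with 82.0, 84.7 and 122 CPM early and 199, 475, 350.1 and 279 CPM late (log2 fold change 1.99 ± 0.47 (SE), adjusted p = 0.0217); the other blocks had 27.5 to 85.8 CPM. In those 4 embryos the maternal list took 0.720% to 1.19% of gene counts, against 1.57, 1.02 and 0.771% and 0.579, 0.313, 0.349 and 0.371% along the series.

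**Figure D4:**
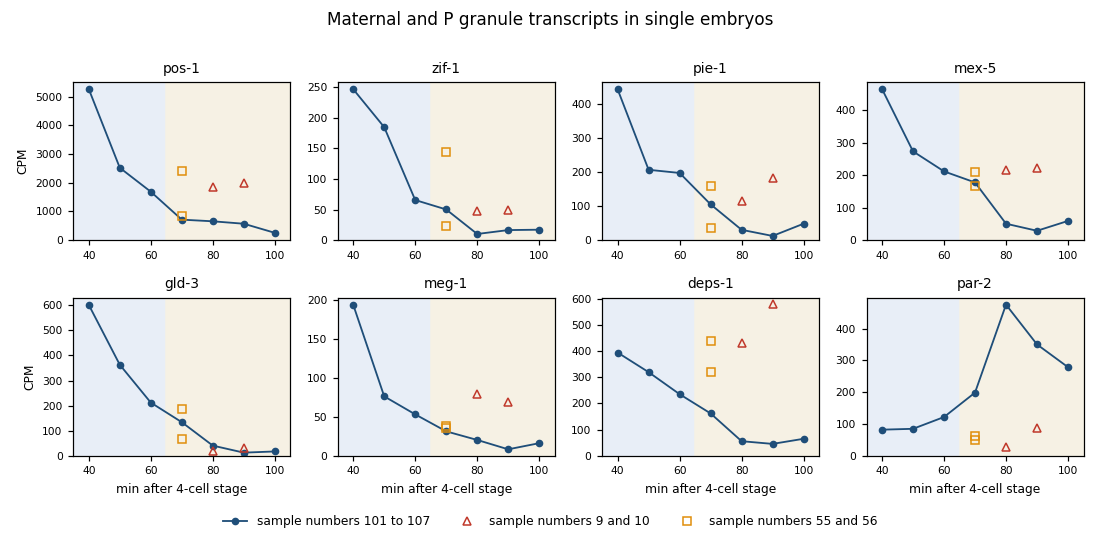
CPM (vertical axes, starting at 0 and scaled to each gene) of 8 maternal and P granule genes against labelled time (min after the 4-cell stage). Joined points are sample numbers 101 to 107, triangles 9 and 10, squares 55 and 56, and each point is 1 embryo. Apart from par-2, which peaks at 475 CPM at 80 min, the genes are highest at 40 min in the joined series. pos-1, meg-1 and deps-1 stand higher in the separate embryos than in the joined ones at the same times.

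The P granule, germline precursor and small RNA list held 34 genes, of which 30 were tested, 5 fell and 0 rose. All 30 had a negative log2 fold change and the median was -1.3 (-0.54 over all 11 embryos, with 26 of 30 negative). mip-2, a P granule protein gene, had 234, 137 and 70.7 CPM early and 30.1, 10.1, 24.7 and 6.22 CPM late and 0 to 62.8 CPM elsewhere, and its late values were all below the early ones (log2 fold change -2.86 ± 0.61 (SE), adjusted p = 0.0172). meg-1, which codes for a disordered P granule protein, had 193, 76.0 and 53.0 CPM early and 31.2, 20.2, 8.24 and 16.1 CPM late (log2 fold change -2.24 ± 0.57 (SE), adjusted p = 0.0286). The Polycomb type gene mes-2, the Argonaute gene wago-1 and the P granule gene deps-1 fell as well (log2 fold change -2.17, -1.59 and -1.72). In the other blocks meg-1 had 35.7 to 78.5, mes-2 31.4 to 144 and wago-1 121 to 415 CPM, each overlapping its early range. At 40 to 60 min mes-2 had 103 to 261 and wago-1 251 to 385 CPM. There was overlap for deps-1 too, at 320.1 to 578 CPM in the other blocks, against 394, 319 and 235.3 CPM at 40, 50 and 60 min. nos-2, a maternal Nanos gene needed in the germline precursors, had 328, 327 and 208 CPM early and 235.3, 106, 115 and 131 CPM late (adjusted p = 0.258).

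The size rule named further falls. era-1, a maternal RNA, had 439, 62.0 and 37.8 CPM early and 11.2, 5.05, 16.5 and 7.78 CPM late (log2 fold change -3.97 ± 0.79 (SE), adjusted p = 0.0169), and most of its drop lay between 40 and 50 min. In the other blocks era-1 had 0 to 64.7 CPM, overlapping its early range. C05C10.5 had 1472, 442 and 363 CPM early and 171, 5.05, 28.8 and 98.5 CPM late and 107 to 157 CPM elsewhere, below the early values in all 8 late embryos (log2 fold change -3.05 ± 0.69 (SE), adjusted p = 0.019). mct-5, F40G12.11 and C48B4.7 also had no overlap over the 11 embryos (log2 fold change -3.63, -3.28 and -3.09). K02C4.3, algn-12, Y53C10A.6, C17E7.4 and pgap-1 fell with overlap in other blocks (log2 fold change -3.92, -3.16, -3.14, -3.13 and -3.08). The lectin gene clec-87, chosen after its values were seen, shared the lowest adjusted p over all 11 embryos with ceh-13, ceh-43, dsl-1 and vet-1. It had 5798, 4809.7 and 3016 CPM early and 1429.8, 682, 898 and 297 CPM late and 329.7 to 1502 CPM elsewhere (log2 fold change -2.24 ± 0.47 (SE), adjusted p = 0.0169).

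Of 66 cell cycle genes 61 were tested, and the median was -0.05. Against 2.89% and 5.19% over all genes, 1 fell and 0 rose. The one that fell was cdc-25.1, a maternal phosphatase that drives mitotic entry, with 352, 300.1 and 192 CPM early and 114, 45.5, 49.4 and 49.8 CPM late and 51.2 to 84.7 CPM elsewhere, below the early values in all 8 (log2 fold change -1.89 ± 0.45 (SE), adjusted p = 0.0223). Its paralog cdc-25.3 had 155, 141 and 273 CPM early and 543, 1369.9, 2121 and 58.6 CPM late: it was highest at 90 min and low at 100 min, and it was not called (adjusted p = 0.0527). The B cyclins cyb-2.1 and cyb-2.2 had log2 fold changes of -1.46 and -1.44 (adjusted p = 0.0825 and 0.0708). Cyclin D, cyd-1, was at most 36.7 CPM up to 90 min and 328 CPM at 100 min (adjusted p = 0.154), and cyclin E, cye-1, had 44.0, 40.7 and 18.3 CPM early and 26.8, 10.1, 12.4 and 47.2 CPM late (adjusted p = 0.894). wee-1.1, an early zygotic kinase gene, stayed at or under 10.1 CPM.

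The list of genes of the cell movements of gastrulation held 45 Wnt, actomyosin, adhesion and polarity genes, of which 41 were tested. Of these 0 rose and 1 fell, the low-abundance gene tes-1, against 5.19% and 2.89% over all genes. The median was -0.48, and 30 of the 41 had a negative log2 fold change. In 14 of the 41 the late embryos of the series all lay below the early ones, against 19.4% over all genes. In 0 they all lay above, against 8.72%. Labelled time called rho-1 higher and pac-1, par-3 and gad-1 lower. nmy-2, the non-muscle myosin that drives apical constriction, had 379, 347 and 372 CPM early and 352, 80.9, 86.5 and 295 CPM late (adjusted p = 0.418), and 151 to 224 CPM elsewhere. Its low values were those of the shallow 80 and 90 min embryos. The cadherin gene hmr-1 had 134, 104 and 72.5 CPM early and 83.6, 15.2, 4.12 and 110.0 CPM late and 337 to 480.2 CPM elsewhere (adjusted p = 0.543). The Wnt ligand gene mom-2 had 315, 279 and 288 CPM early and 325, 75.8, 82.4 and 104 CPM late (adjusted p = 0.309), and the myosin-activating kinase gene mrck-1 had 69.9, 67.4 and 78.9 CPM early and 43.5, 15.2, 24.7 and 85.1 CPM late (adjusted p = 0.593). The WD repeat gene gad-1, named for its gastrulation defect, had 418, 468 and 361 CPM early and 327, 101, 90.6 and 74.7 CPM late (adjusted p = 0.105). The polarity gene par-3 had a log2 fold change of -1.60 (adjusted p = 0.0775), and the GTPase gene rho-1 one of 1.76 (adjusted p = 0.0763). Among 19 apical junction genes 13 were tested and 1, the ephrin gene efn-4, rose (log2 fold change 2.83), against 5.19% over all genes. The median of the list was -0.05, and 0.32 over all 11 embryos.

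All 32 proteasome genes tested of 33 (a list added after values were seen) had a negative log2 fold change, 3 fell and the median was -0.98 (-1.01 over all 11 embryos, 31 of 32 negative). Their share went from 1.85, 1.54 and 1.19% at 40, 50 and 60 min to 0.935, 0.577, 0.572 and 0.457% at 70, 80, 90 and 100 min and 0.521% to 0.937% elsewhere, so the groups did not overlap in any block. The core subunit gene pbs-1 had 2107, 1475 and 1334 CPM early and 811, 394, 404 and 279 CPM late (log2 fold change -1.59 ± 0.41 (SE), adjusted p = 0.0311), and pbs-2 and pbs-6 fell as well (log2 fold change -2.0 and -1.55). rpl-14, rps-16 and rps-28 rose (log2 fold change 1.69, 1.5 and 1.52), 3 of the 80 ribosomal protein genes tested among 81, against 5.19% over all genes. The median of the ribosomal protein genes was 0.83. Their share was 2.31, 2.04 and 2.76%, then 2.38, 4.31, 3.85 and 3.82%, and 4.42% to 8.89% in the other blocks. All 12 genes of the mitochondrial genome were tested and 5 rose (median 1.55), among them ND6, ND1, COX3 and MTCE.12 (log2 fold change 2.23, 2.04, 1.89 and 1.73). Their share peaked at 5.56% in the 90 min embryo and was 1.48% at 100 min, and the highest values were those of the 3 embryos with the fewest gene counts of the series. In the other blocks the share was 1.13% to 1.62%, overlapping the 0.869% to 1.51% of 40 to 60 min. ND1 and ND6 overlapped between the groups within the 7 embryos. In the other blocks ND1 had 637 to 998 and COX3 761 to 1219 CPM, against 759 to 1097 and 1239 to 1846 CPM early. ND6 had 922 to 2010 and MTCE.12 1123 to 2409 CPM there, against 514 to 1075 and 806 to 1476 CPM early. The linker histone genes (hil, a list added after values were seen) had 5 of 8 tested and 2 rose, hil-2 and hil-3 (log2 fold change 1.74 and 2.23, median of the list 1.74). In the other blocks hil-2 had 728 to 1354 and hil-3 287 to 536 CPM, against 494 to 855 and 110 to 432 CPM early. Within the series hil-3 overlapped as well, with 420 CPM at 80 min. The share of the list was 0.399% to 0.480% early, 0.276% to 0.734% late and 0.272% to 0.444% in the other blocks. Of 18 heat shock genes 8 were tested and 0 called (median -0.27, but 0.63 over all 11 embryos, where 12 were tested), of 16 neuronal genes 4 were tested and 0 called (median 0.33), of 18 late muscle genes 11 were tested and 0 called (median 0.57), and of 6 yolk genes 6 were tested and 0 called (median -0.03). Of 175 collagen genes 29 were tested and 1 fell, dpy-10 (median 0.63), against 2.89% over all genes. None of 30 sperm genes could be tested. Over all 11 embryos the medians of the yolk, collagen and late muscle lists were 3.32, 3.47 and 3.62.

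X-linked genes took a larger share of the counts in the late embryos. The share was 4.56%, 5.94% and 6.30% at 40, 50 and 60 min, 7.49%, 7.72%, 7.18% and 10.6% at 70, 80, 90 and 100 min, and 7.37% to 10.2% in the other blocks. Every late embryo was above every early one. The X-linked yolk gene vit-2 had 2257 to 3431 CPM in the other blocks, against 10.1 to 333 CPM in the 7 embryos of the series. The part of yolk and other genes that separated the blocks in the X-linked share was not tested. Among 711 X-linked genes tested 49 rose (6.89%) and 7 fell (0.985%). Of the tested genes of each autosome between 3.04% and 8.78% rose, with chromosome II above X, and between 2.95% and 3.43% fell. Of 22 sex determination and dosage compensation genes 18 were tested and 1 fell, against 2.89% over all genes (median of the list 0.25). That gene was fem-3, a maternal sex determination gene, with 91.9, 88.0 and 36.6 CPM early and 10.0, 20.2, 16.5 and 20.2 CPM late (log2 fold change -1.91 ± 0.56 (SE), adjusted p = 0.0471). xol-1, the master switch of sex determination, had 0.863, 24.7 and 12.6 CPM early and 14.5, 20.2, 16.5 and 107 CPM late (adjusted p = 0.172), and sdc-2, which starts dosage compensation, had 28.0, 59.4 and 66.2 CPM early and 122, 15.2, 8.24 and 164 CPM late (adjusted p = 0.47). The labels did not give the sex of the embryos.

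In the 4 embryos of 110 to 140 min from the same block, 13 of the 347 genes called higher had a mean below that of 40 to 60 min, 55 had a mean under 50% of that at 70 to 100 min, and 67 a mean over 200% of it. All 193 genes called lower stayed below their 40 to 60 min mean, and 39 of them had a mean over 200% of that at 70 to 100 min. The genes were selected by their 40 to 60 and 70 to 100 min values, and the same counts over all tested genes were not made. No conclusion about the called genes is drawn from these counts. At 110 to 140 min elt-7 lay at 61.8 to 99.4 CPM, hnd-1 at 288 to 438 CPM, elt-1 at 306 to 506 CPM, and pos-1 at 187 to 406 CPM.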

How the data were processed

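Messenger RNA of single embryos was measured by CEL-Seq. As deposited, the data are whole-number read counts without normalization, for 20687 gene lines, 92 spike-in RNAs and 5 counters that name no gene, and 1 library holds 1 embryo per the labels. CASAVA 1.8, Bowtie2 2.1.0 and HTSeq 0.5.4p3 are named in the submitters' processing notes, without roles. A genome build was not given in the sources used here. No molecular identifiers are named, so counting limits cover counting error only. Gene lines held 29.5% to 67.6% of the reads listed per embryo, and the other lines were left out of the tests. Symbols and chromosomes came from Ensembl release 115 (20083 lines matched to 1 gene). CPM is a gene's counts per 1000000 gene counts, without spike-ins and counters.

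Embryos were grouped by labelled time. The main test was edgeR 4.0.16 in R 4.3.3 (TMM, filterByExpr with a minimum count of 10, quasi-likelihood test) on the 11 embryos, with no covariate. Calls were made at 2-fold or more with p-values adjusted by Benjamini-Hochberg below 0.05. Alternatives were relative log expression, no filter, DESeq2 1.42.0, single embryos left out, 1 number block of 7 embryos, number block as covariate, and labelled time. Adjusted p-values and log2 fold changes of single genes are from the 7 embryos unless 11 are named. The tests were checked on simulated counts.

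The members and lists were chosen with earlier results of these data known. Named genes are the 10 largest rises and the 10 largest falls among calls at 50 CPM or more in the higher group, from each list up to 4 called members at 20 CPM or more, and a fixed set of markers. Since the main test called none, the rule was applied to the calls of the 7 embryos. These genes were named after their values were seen: par-2, tbx-33, hlh-25, sdz-1, sdz-15, sdz-38, cdc-25.3, cyd-1, cyb-2.1, cyb-2.2, unc-120, lag-1, gad-1, par-3, rho-1, tbx-8, tbx-9, nob-1, lin-26, elt-3, lin-12, cbp-1, clec-87, unc-54, myo-3, rab-3, unc-119, spn-4, oma-2, marc-3, wago-1, pac-1, tes-1 and ceh-20. Promoter sequences and motifs were not analysed here.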

Additional observations from a re-analysis of the deposited data

Results flagged for a closer look

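Among 160 named genes and shares looked at in the 8 embryos of 70 to 100 min, 25 had 1 embryo far from the other 7 (gap to the nearest of them over the whole range, against Dixon's limit). Chance flags about 1 in 20 groups of independent values with a normal spread. These embryos differ in labelled time and number block, and some of the genes were chosen after their values were seen. The 25 are therefore not set against that rate. In 11 of the 25 the far embryo was the 100 min embryo with number 107, the latest of the window. It had 742.8 CPM of nhr-2, 2649 CPM of hil-3, 3935 CPM of hil-2, 234 CPM of fbxc-25, 109 CPM of fbxc-29, 96.0 CPM of cwn-1, 770.2 CPM of sdz-28, 176 CPM of igcm-4, 328 CPM of cyd-1 and 69.5 CPM of nob-1, and linker histone genes took 0.734% of its gene counts.

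The 70 min embryo with number 104, from the earliest labelled time of the group, was above the others in 226 CPM of tbx-33, 153 CPM of sdz-15, 325 CPM of mom-2, 20.1 CPM of hlh-25 and 7.81 CPM of tbx-35. Its 1.12 CPM of med-2 was 1 count, below what 1 count is worth in the shallow 80 and 90 min embryos, so it cannot be told from their 0. The shallow 90 min embryo with number 106 had 5844 CPM of ND6.

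The other 7 came from the other number blocks. The 80 min embryo with number 10 had 39.3 CPM of C17E7.4 and 43.2 CPM of unc-120. The 90 min embryo with number 9 had 19.6 CPM of rab-3, 140.0 CPM of par-3 and 85.8 CPM of K02C4.3. The 70 min embryos with numbers 55 and 56 had 144 CPM of zif-1 and 359 CPM of pbs-2. No explanation of these values was tested.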

How the results depend on the processing

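Over the 11 embryos the counts of genes higher and lower, 0 and 0, stayed at 0 with relative log expression, which moved the median log2 fold change of all genes from 0.01 to 0.17, and without any 1 embryo (0 to 0). They were 171 and 78 with no filter, 477 and 67 with DESeq2, 115 and 47 with the block covariate (whose time difference comes from the 7 embryos), 57 and 29 with labelled time, and 347 and 193 in the 7 embryos of 1 number block. The remaining settings were chosen after seeing the data. Without the embryos of either other block 0 were called. In the 7 embryos DESeq2 called 630 and 379, and no filter left 443 and 406. Leaving out 1 embryo gave 0 to 462 higher and 0 to 377 lower, and leaving out the 80 and 90 min embryos gave 0 and 0. Labelled time in the 7 called 625 and 544, and 128 to 744 higher and 78 to 750 lower without 1 embryo. It held 511 of the 540 calls. Of the named genes, only dpy-10 changed its sign on being called, from 0.77 over the 11 embryos to -2.25 in the 7. No paired analysis was possible because the labels give no replicate numbers shared by the groups. Depth limits genes under about 15.2 CPM in the 80 min embryo of the series, and 4-fold changes were mostly missed on simulated counts in both designs.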
